A study of Mus musculus with 4 samples.

Results

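The genes described here encode the subunits of the mitochondrial respiratory chain and ATP synthase, with a few proteins that share their symbols. Members were taken by symbol from the authors' deposited table: those starting Nduf (complex I), Sdha to Sdhd (complex II), those starting Uqcr (complex III), those starting Cox4 to Cox8 without Cox6a2 (complex IV), and those starting Atp5 (complex V). The rule found 92 transcripts of 89 genes, out of 16545 gene symbols in the table, and a gene with several transcripts is represented by the best counted one. Among the 89, 80 were counted as subunits by their symbols, and 7 are Ndufaf assembly factors of complex I. Atp5s and Atp5sl are not subunits of the ATP synthase despite their symbols.

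The cells were mouse leukaemic cells carrying MLL-AF9, a fusion oncogene of myeloid leukaemia, derived from C57BL/6 bone marrow and grown in liquid culture. By the labels all of them, controls included, lacked Ring1a and Cdkn2a and carried floxed Ring1b (Ring1a-/-, Ring1bf/f, Cdkn2a-/-). Over 72 h they received OHT, the usual short name of hydroxytamoxifen, or EtOH, ethanol, and RNA-seq was made from 2 samples of each group. RING1A and RING1B, encoded by Ring1 and Rnf2, are the ubiquitin ligases of Polycomb repressive complex 1, and the series asks whether that activity keeps leukaemic cells in their identity. The labels used here do not name the recombinase. They also do not say whether the samples of each treatment were separate cultures or animals, so every p-value reflects the spread between the samples at hand, and that spread may be technical. Cells without floxed Ring1b that received OHT were not analysed here, so OHT itself and loss of RING1B cannot be told apart.

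The respiratory chain sits in the inner mitochondrial membrane. Complexes I and II pass electrons from NADH and succinate to ubiquinone, complex III passes them on to cytochrome c, and complex IV to oxygen; protons pumped on the way drive ATP synthesis in complex V. Most subunits are encoded by nuclear genes, made in the cytosol and imported, and assembly factors build them together with a core encoded in mitochondrial DNA without staying in the finished complex. Acute myeloid leukaemia cells are known for a strong reliance on oxidative phosphorylation.

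The deposited table holds 1 mean of normalised reads per group. Each mean could be solved into whole reads of its libraries, which gave totals of 3841243 to 6255320 reads, and the libraries of each group are called A and B; the letters are arbitrary. Rnf2, the targeted gene, had 687 and 583 normalised reads in the EtOH libraries and 716 and 797 in the OHT libraries, so it was not lower with OHT (limma-voom log2 fold change 0.25 ± 0.21 SE, adjusted p = 0.458). Reads were counted per transcript and not per exon, and which exons are floxed is not given, so that value does not check the labels. Ring1, stated as lost in both groups, had 49.8 and 84.6 against 149 and 93.8 (0.93 ± 0.39, adjusted p = 0.131 by limma-voom); its reads were thus present in every library, and the deleted stretch is not given either. Of the 12 myeloid leukaemia cell markers all were measured, with summed levels of 4527 and 4579 in EtOH and 7110 and 6641 in OHT libraries. Of 12 macrophage markers 10 were measured and 5 were called higher, beside 3.62% of all transcripts. Their sums were 2698 and 1010 with EtOH and 3889 and 5178 with OHT. The T and B cell markers, 6 measured, summed to 61.4 and 117 with EtOH and 192 and 102 with OHT, with overlap, Cd3g and Cd4 being at no more than 3 reads. Erythroid markers (3 measured, 1 called higher) summed to 17.4 and 16.9 against 58.8 and 91.5. The 9 stromal and endothelial markers (1 called higher) summed to 50.6 and 54.7 against 69.7 and 68.1. Among these 9, Cdh5, Col1a2, Cxcl12, Pdgfra and Pdgfrb were at no more than 3 reads. Only 4 of the 9 had a higher OHT mean and 5 a lower one, with a median log2 fold change of -0.48 in the authors' deposited table. Of 9 skeletal and cardiac muscle markers 2 were measured, summing to 138 and 139 with EtOH and 66.3 and 84.8 with OHT. All of these sums but that of the T and B cell markers were separated between the treatments, and their part in the results on respiratory genes was not tested.

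The promoters of 4 genes are shown because the genes differ in direction. Ndufaf4 and Ndufaf5 were among the members with the lowest OHT levels relative to EtOH. Ndufv3 and Uqcrh were among the 4 well-counted subunits with a higher OHT mean. Ndufaf5, Ndufv3 and Uqcrh passed neither the authors' test nor limma-voom, and the libraries of Uqcrh overlapped. The sequences are RefSeq windows of build GRCm38.p6, from 250 bases before to 50 after the annotated start, 5′ to 3′ along the gene, with matches to a searched motif in capitals. Matches to the motif of NRF1, a transcription factor of nuclear genes for mitochondria, stand in the Ndufaf4 and Ndufaf5 windows, and a match to CCGGAAG, an ETS motif bound by GABP among others, stands on the opposite strand of the Uqcrh window. The Ndufv3 window holds no match. Among the other Ndufaf genes with a window, Ndufaf1 holds an ETS match, and Ndufaf2, Ndufaf3 and Ndufaf7 hold none of the letters searched. Ndufaf6, the lowest of the well-counted members, had no window. The window of Atp5s, which stood as low as Ndufaf4 (-0.98 in the authors' deposited table), holds no match. Whether a match goes with the direction was not tested.
Ndufaf4 promoter window (chr4:24897833-24898132, plus strand): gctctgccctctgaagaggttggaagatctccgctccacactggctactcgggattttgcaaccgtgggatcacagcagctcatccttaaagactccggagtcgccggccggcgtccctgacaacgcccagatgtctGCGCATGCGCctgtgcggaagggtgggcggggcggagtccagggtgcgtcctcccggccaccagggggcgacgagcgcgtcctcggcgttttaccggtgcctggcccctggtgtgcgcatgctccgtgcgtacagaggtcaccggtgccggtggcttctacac
Ndufaf5 promoter window (chr2:140170396-140170695, plus strand): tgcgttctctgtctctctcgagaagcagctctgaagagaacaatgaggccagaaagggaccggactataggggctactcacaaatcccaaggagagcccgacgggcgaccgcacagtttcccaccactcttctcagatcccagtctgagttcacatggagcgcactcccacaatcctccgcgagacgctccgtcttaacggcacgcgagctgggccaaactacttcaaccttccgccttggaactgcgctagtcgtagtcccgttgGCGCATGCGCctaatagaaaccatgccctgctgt
Ndufv3 promoter window (chr17:31519865-31520164, plus strand): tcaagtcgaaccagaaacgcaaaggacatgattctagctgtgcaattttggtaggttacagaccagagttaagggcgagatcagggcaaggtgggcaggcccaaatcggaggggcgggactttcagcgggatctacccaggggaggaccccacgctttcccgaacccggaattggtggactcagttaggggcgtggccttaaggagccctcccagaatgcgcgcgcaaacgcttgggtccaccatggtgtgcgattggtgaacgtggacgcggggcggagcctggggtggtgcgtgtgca
Uqcrh promoter window (chr4:116075021-116075320, minus strand): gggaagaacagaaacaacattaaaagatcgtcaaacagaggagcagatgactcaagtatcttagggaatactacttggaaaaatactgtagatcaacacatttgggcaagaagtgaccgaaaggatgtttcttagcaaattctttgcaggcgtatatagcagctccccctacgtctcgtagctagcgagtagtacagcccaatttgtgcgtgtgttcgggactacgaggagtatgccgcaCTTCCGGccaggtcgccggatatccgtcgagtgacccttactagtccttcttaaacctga

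The letters searched were CCGGAAG (ETS), AAGATGGC (YY1) and, for NRF1, the 10 letters in capitals in the Ndufaf4 window with any base in place of the T, on both strands. Of the 89 members 75 had a window in the RefSeq table, and across their 81 windows, 20 (24.7%) held the NRF1 letters, 17 (21.0%) the ETS letters and 12 (14.8%) the YY1 letters, and 43 (53.1%) held at least 1 of them. Among 32851 windows of all genes the shares were 4.60%, 8.86% and 2.75%, with 14.7% for any of the 3. Well-counted genes held these letters more often: among 7437 windows of genes with a mean of at least 50 normalised reads the shares were 11.2%, 20.1% and 5.22%, with 32.4% for any. The ETS share of the members was thus near that of other well-counted genes, and the NRF1 and YY1 shares were higher. A match is a description of the letters only; binding was not measured.

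In the 31 subunits of complex I to the 13 of complex V that were well counted (a mean of at least 50 over both groups), levels with OHT were slightly below those with EtOH, and no subunit of any complex passed the authors' test. In the authors' deposited table, 1 of the 89 members was called lower at an adjusted p under 0.05, the assembly factor gene Ndufaf6, and none higher. Over all transcripts, 1.85% were called lower and 3.62% higher. At an unadjusted p under 0.05 the authors' deposited table had 5 members lower and none higher, namely Ndufaf4, Ndufaf5, Ndufaf6, Atp5s and Atp5sl, against 6.64% and 7.82% of all transcripts. Limma-voom on the solved reads, which could be fitted for 79 members, called Ndufaf4 and Ndufaf6 lower and none higher, against 5.49% and 9.72% of transcripts. The share of members called was thus at or below the background under each of these rules.

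The direction was shared more widely than the calls. Of the 66 well-counted subunits 62 had a lower OHT mean in the authors' deposited table, with a median log2 fold change of -0.20 and a range of -0.53 to 0.19, beside a median of -0.12 over all 8378 transcripts with a mean of at least 50, of which 4967 were lower. The limma-voom standard errors of these subunits were 0.20 to 0.29, median 0.24, so the typical difference was smaller than its error. With TMM scaling, which moved the median of all fitted transcripts by 0.07, limma-voom put 55 of the 66 lower and 11 higher, with a median of -0.090. In 16 of the 66 both OHT libraries lay below both EtOH libraries and in 1, Ndufv3, above, while such separation was seen in 38.7% and 24.4% of all transcripts with that mean. In bulk RNA, fewer cells of a type and less RNA per cell cannot be told apart.

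**Figure D1:**
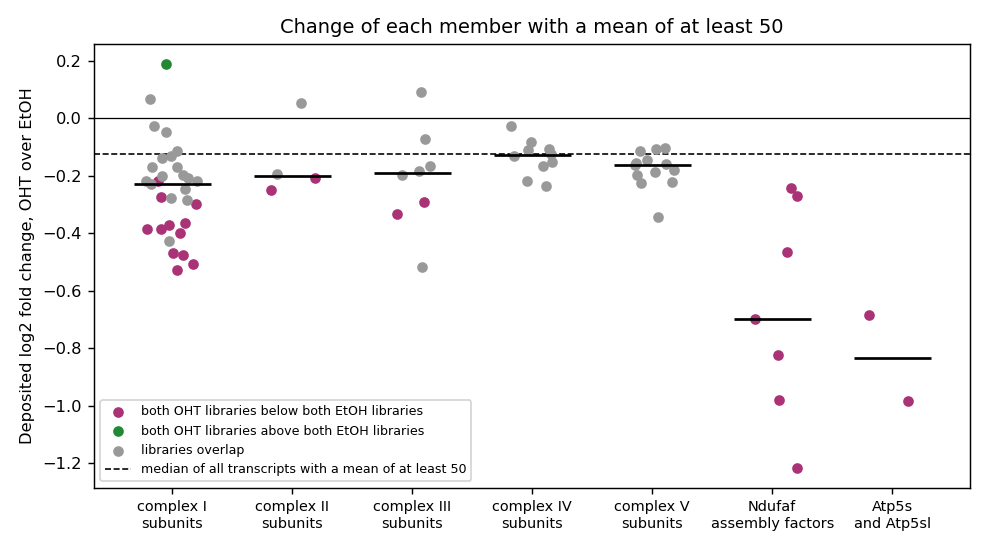
Deposited log2 fold change, OHT over EtOH, of each of the 75 members with a mean of at least 50, by complex (vertical axis, log2; each point is a gene, black bars are medians, the dashed line is the median of all transcripts with that mean). Subunits of the 5 complexes lie between -0.53 and 0.19, while the 7 Ndufaf assembly factors reach from -1.22 to -0.24 with no overlap between the libraries of the groups.

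Complex I oxidises NADH and is the largest of the complexes. Its 31 well-counted subunits had a median log2 fold change of -0.23 in the authors' deposited table, with 29 lower (27 with TMM scaling), and in 12 (38.7%) both OHT libraries lay below both EtOH libraries, the share seen over all transcripts with a mean of at least 50. Ndufa12, an accessory subunit related to the assembly factor NDUFAF2, stood lowest: 326 and 435 normalised reads in EtOH libraries A and B against 222 and 306 in OHT libraries A and B. Both OHT libraries were below both EtOH libraries, and limma-voom gave a log2 fold change of -0.53 ± 0.26 (SE) with an adjusted p of 0.202, which did not pass. Ndufv1, the flavoprotein that binds NADH, had 835 and 947 reads against 604 and 677 (-0.48 ± 0.20, adjusted p = 0.145 by limma-voom). Ndufa9, an accessory subunit near the ubiquinone-binding site, had 729 and 770 against 506 and 576 (-0.47 ± 0.21, adjusted p = 0.148 by limma-voom). In these genes the groups were separated, as in many transcripts, and the difference stayed short of the threshold. The other separated subunits were Ndufa5, Ndufa10, Ndufab1, Ndufb2, Ndufb3, Ndufb4, Ndufb6, Ndufc2 and Ndufs7.

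Other subunits of complex I lay closer to no difference. Ndufa10, an accessory subunit of the membrane arm, had 797 and 919 against 709 and 766 (-0.21 ± 0.20, adjusted p = 0.515 by limma-voom). Ndufv3, a small accessory subunit of the NADH-binding module, went the other way, with 333 and 290 reads against 342 and 370 (0.18 ± 0.23, adjusted p = 0.637 by limma-voom); it was the only one of the 66 with both OHT libraries above both EtOH libraries. Ndufa4, named as a complex I subunit and since assigned to complex IV, had 377 and 509 reads against 398 and 472, with overlap. The accessory subunits on the membrane arm named Ndufb had 10 well-counted members, from Ndufb4 (-0.40) to Ndufb9 (-0.14) in the authors' deposited table, all lower and none called.

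Complex II is succinate dehydrogenase, which also acts in the TCA cycle and is wholly encoded in the nucleus. Sdha, its flavoprotein, had 1609 and 1595 reads in EtOH libraries A and B and 1204 and 1489 in OHT libraries A and B (-0.26 ± 0.20, adjusted p = 0.425 by limma-voom), with no overlap between the groups. Sdhb, its iron-sulphur subunit, had 548 and 586 against 553 and 625, with overlap. The membrane anchors Sdhc and Sdhd had 676 and 727 against 566 and 650, and 959 and 1262 against 915 and 1026; the groups were separated for Sdhc only. None of the 4 was called, and the subunits of this enzyme did not share 1 direction.

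Complex III, the cytochrome bc1 complex, had 8 well-counted subunits with a median of -0.19 and 7 of 8 lower in the authors' deposited table. The core proteins Uqcrc1 and Uqcrc2 were separated between the groups: Uqcrc1 had 1239 and 1503 reads against 1031 and 1207, and Uqcrc2 1165 and 1319 against 867 and 1104. Uqcrq, a small subunit, had the lowest fold of the 8 (-0.52 in the authors' deposited table), yet its libraries overlapped, with 469 and 764 reads against 385 and 476. Uqcrh, the acidic hinge protein that helps cytochrome c dock, had 414 and 583 against 481 and 581 and a limma-voom log2 fold change of 0.12 ± 0.24 (SE). The small subunits thus differed as much between the EtOH libraries as between the groups.

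Complex IV, cytochrome c oxidase, had 10 well-counted subunits encoded in the nucleus, with a median of -0.13 in the authors' deposited table. All 10 were lower on the group means, 7 of 10 with TMM scaling, and in none were the groups separated. Cox4i1, the general form of subunit 4, had 769 and 1096 reads against 760 and 973. Cox6a1 had 508 and 764 against 501 and 644, and Cox6b1 396 and 556 against 419 and 515. Cox5b, which had the lowest fold of the 10 in the authors' deposited table (-0.24), had 459 and 672 against 431 and 529. In each of these genes EtOH library B was the highest of the 4 libraries and EtOH library A lay close to OHT library A, with OHT library B between the EtOH libraries.

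Complex V, the ATP synthase, gave the highest levels per transcript length. Per kilobase, Atp5b, the catalytic beta subunit, had an EtOH mean of 1459 and an OHT mean of 1251 normalised reads, the highest of the well-counted subunits in both groups, and Ndufab1, the mitochondrial acyl carrier protein that is also a subunit of complex I, the lowest at 124 and 95.9. The Ndufab1 values rest on a matched length of 3479 nt for a gene with 4 RefSeq transcripts. Before division by length its means were 432 with EtOH and 334 with OHT. Median levels per kilobase with EtOH were 941 for complex V, 818 for complex IV, 751 for complex III, 588 for complex I and 525 for complex II, and 153 for the Ndufaf factors. With OHT the order was the same, at 837, 775, 658, 499, 491 and 116.

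None of the 13 well-counted ATP synthase subunits was called or separated, and all 13 were lower on the group means (12 of 13 with TMM scaling), with a median of -0.16 in the authors' deposited table. Atp5a1, the alpha subunit, had 2562 and 3448 reads in EtOH libraries A and B against 2272 and 2876 in OHT libraries A and B (-0.22 ± 0.23, adjusted p = 0.557 by limma-voom). Atp5b had 2362 and 3227 against 2068 and 2724 (-0.22 ± 0.23, adjusted p = 0.569 by limma-voom). In both genes OHT library B lay above EtOH library A. Atp5g1, Atp5g2 and Atp5g3 encode the same mature c subunit of the rotor ring: Atp5g2 had 613 and 939 against 543 and 680, Atp5g3 700 and 952 against 679 and 806, and Atp5g1 only 42.3 and 45.6 against 28.6 and 38.0.

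**Figure D2:**
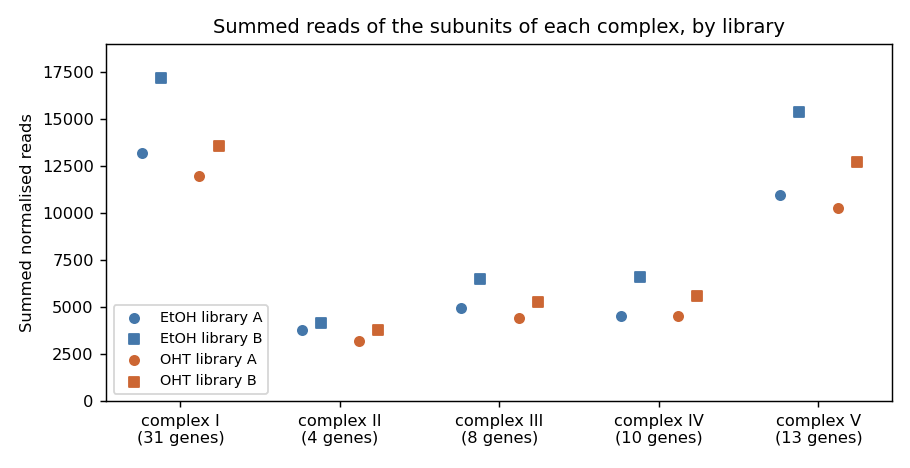
Summed normalised reads of the well-counted subunits of each complex (vertical axis) in the 4 libraries, with EtOH in blue, OHT in orange, circles for library A and squares for library B. EtOH library B stands highest in every complex, while EtOH library A lies level with OHT library A for complex IV (4529 and 4542) and between the OHT libraries for complex V.

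The summed reads show how far the lower level rests on 1 library. Over the 66 subunits the sums were 37423 and 49847 in EtOH libraries A and B and 34518 and 40976 in OHT libraries A and B. The OHT mean was thus 13.5% lower and the groups overlapped. Over all 8378 transcripts with a mean of at least 50 the summed reads were 4.16% lower with OHT. For complex I the sums were 13204 and 17190 against 11999 and 13579, for complex II 3791 and 4169 against 3238 and 3790, and for complex III 4943 and 6518 against 4438 and 5284. For complex IV they were 4529 and 6605 against 4542 and 5602, and for complex V 10956 and 15364 against 10301 and 12721. EtOH library B was the highest of the 4 libraries for 63 of the 66 subunits. Without EtOH library B, limma-voom gave the 66 subunits a median of 0.06 with 24 lower and 42 higher, and without EtOH library A a median of -0.43 with 64 lower. EtOH library B also had the lowest macrophage marker sum of the 4, 1010 beside 2698 in EtOH library A; the part of this in the result was not tested.

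The gap between the EtOH libraries moved with transcript length. Respiratory transcripts are short, with a median of 838 nt over the 75 well-counted members and 2905 nt over all transcripts with that mean. Of the 75 members, 73 had a higher level in EtOH library B than in A, and the median log2 ratio of B to A was 0.49, while in the OHT libraries it was 0.21. Across the 75 members Pearson's r between the log2 ratio of the EtOH libraries and log2 length was -0.63 (Spearman's rho -0.64), and between the OHT libraries -0.10; the genes share the same libraries and are not independent. Over 8312 transcripts with a known length the EtOH value was -0.42. The median ratio over all transcripts went from 0.59 at up to 600 nt (122 transcripts) to -0.40 above 5000 nt (1552 transcripts) for EtOH, and from 0.20 to -0.01 for OHT.

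Members can therefore be set beside other transcripts of their own length. Up to 600 nt the median deposited log2 fold change was -0.17 for 19 members and -0.21 for the other transcripts, in the authors' deposited table. From 600 to 800 nt it was -0.22 for 17 members and -0.21 for the others, and from 800 to 1000 nt -0.20 for 9 members and -0.22 for the others, again from the authors' deposited table. From 1000 to 1500 nt the values in the authors' deposited table were -0.24 for 13 members and -0.22 for the others. The longer members stood lower than their neighbours in length in the authors' deposited table: -0.29 beside -0.17 for 10 members of 1500 to 2000 nt, -0.24 beside -0.12 for 4 of 2000 to 3000 nt, and -0.37 beside -0.07 for 3 of 3000 to 5000 nt. These bins mix subunits with the lower assembly factors. The 3 longest include Ndufaf4 (-0.98), the 4 before them Atp5sl (-0.69) and the 10 Ndufaf7 (-0.47). Those of 1000 to 1500 nt include Ndufaf1, Ndufaf3, Ndufaf5, Ndufaf6 and Atp5s. Subunits alone were not compared by length bin. Up to 1500 nt, which takes in most members, the medians of members and of other transcripts thus lay within 0.04 of each other. The part of library preparation in this was not tested.

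**Figure D3:**
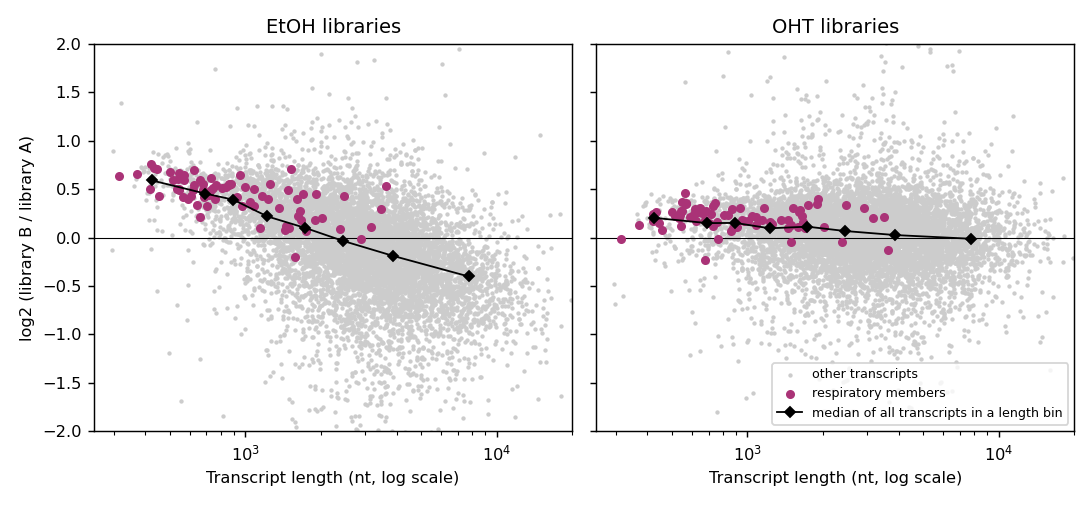
Log2 ratio of library B to library A (vertical axis, log2, shown from -2 to 2) against transcript length (horizontal axis, nt, log scale) for the EtOH libraries (left) and the OHT libraries (right); grey points are other transcripts, purple points are the respiratory members and black diamonds are medians of all transcripts in a length bin. The EtOH medians go from 0.59 in the shortest bin to -0.40 in the longest, and those of the OHT libraries from 0.20 to -0.01.

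The assembly factors of complex I stood further from EtOH than the subunits they assemble. All 7 Ndufaf genes had both OHT libraries below both EtOH libraries, a separation found in 38.7% of the transcripts with a mean of at least 50, with a median log2 fold change of -0.70 and a range of -1.22 to -0.24 in the authors' deposited table; 1 of the 7 passed the authors' test and 2 limma-voom. Without EtOH library B the limma-voom median of the 7 was -0.46 with all 7 lower, and without EtOH library A -0.94. Their roles are known mainly from human cells. Ndufaf6, an early assembly factor, fell: it had 146 and 184 normalised reads in EtOH libraries A and B and 67.2 and 73.7 in OHT libraries A and B. The OHT libraries lay close together, below either EtOH library. The authors' deposited table gives means of 166 and 71.4, a log2 fold change of -1.22 and an adjusted p of 0.0371, and limma-voom gave -1.20 ± 0.31 (SE) with an adjusted p of 0.0290. Leaving out EtOH library A left the limma-voom call (-1.39 ± 0.34, adjusted p = 0.0140). The call was lost without EtOH library B (-1.05 ± 0.33, adjusted p = 0.0566). It was also lost without OHT library A (-1.13 ± 0.52, adjusted p = 0.206) and when OHT library B was dropped (-1.26 ± 0.50, adjusted p = 0.0850), with a log2 fold change below -1 in each limma-voom fit.

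Ndufaf4, which works with NDUFAF3 on the ubiquinone-binding module, had 389 and 562 reads against 251 and 230. The groups were separated, limma-voom gave -0.94 ± 0.26 (SE) with an adjusted p of 0.0368, and the authors' deposited table an adjusted p of 0.138; with TMM scaling the limma-voom adjusted p was 0.0523. Ndufaf5, which hydroxylates an arginine of NDUFS7, had 163 and 220 against 96.6 and 119 (-0.80 ± 0.30, adjusted p = 0.0981 by limma-voom). Ndufaf2, a late factor of the NADH-binding module, had 152 and 223 against 124 and 106 (-0.63 ± 0.31, adjusted p = 0.187 by limma-voom). Neither of these passed. The others were nearer to EtOH: Ndufaf7, a protein arginine methyltransferase, had 279 and 292 against 182 and 230, Ndufaf3 216 and 232 against 177 and 194, and Ndufaf1, a factor of the membrane arm, 190 and 206 against 161 and 173.

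Atp5s and Atp5sl carry the name of the ATP synthase but are not among its subunits; in human cells the product of ATP5SL is an assembly factor of the complex I membrane arm. Atp5s had 129 and 182 reads in EtOH libraries A and B against 79.8 and 77.0 in OHT libraries A and B (-0.93 ± 0.32, adjusted p = 0.0754 by limma-voom). Atp5sl had 416 and 443 against 271 and 262 (-0.68 ± 0.22, adjusted p = 0.0659 by limma-voom). The groups were separated in both genes, and neither passed the authors' test or limma-voom over all libraries. Without EtOH library A limma-voom called both.

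**Figure D4:**
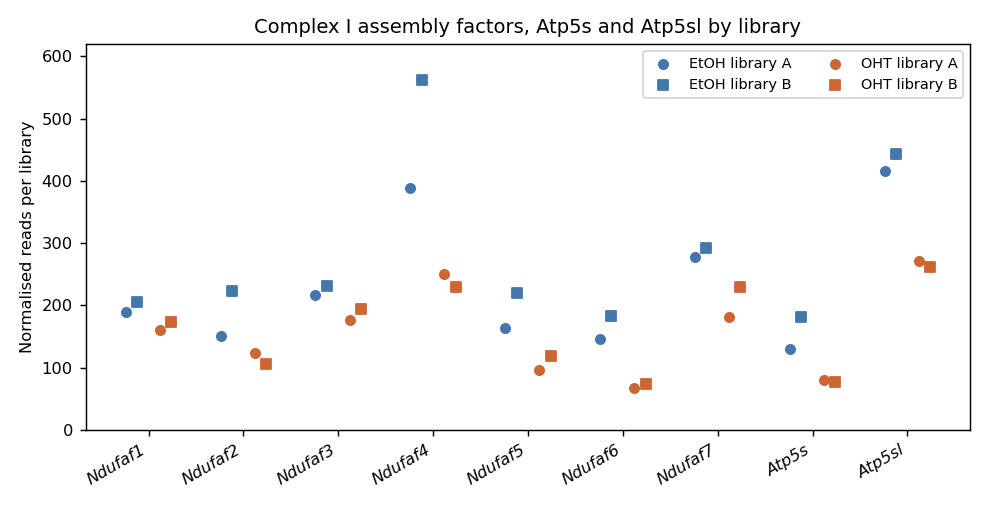
Normalised reads (vertical axis, linear from 0) of the 7 Ndufaf genes, Atp5s and Atp5sl in each of the 4 libraries, with EtOH in blue, OHT in orange, circles for library A and squares for library B. In each of the 9 genes both OHT points lie below both EtOH points, and the gap is widest in proportion for Ndufaf6.

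Ratios taken within a library are free of its size factor. The summed reads of the 7 Ndufaf genes came to 11.6% and 11.2% of those of the complex I subunits in EtOH libraries A and B, against 8.83% and 8.30% in OHT libraries A and B. The sum of Atp5s and Atp5sl came to 4.98% and 4.07% of the complex V subunits with EtOH and 3.41% and 2.67% with OHT. Both ratios were lower in the OHT libraries without overlap. The mix of complexes moved little: complex I made up 35.3% and 34.5% of all subunit reads with EtOH and 34.8% and 33.1% with OHT, and complex V 29.3% and 30.8% with EtOH and 29.8% and 31.1% with OHT, with overlap in each. Complexes II and IV overlapped too, while complex III was lower without overlap, at 13.2% and 13.1% with EtOH and 12.9% and 12.9% with OHT. With 2 libraries against 2 an exact permutation test of 1 value cannot give a two-sided p below 0.333, and none is given.

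The remaining 14 members had a mean under 50 and carry little information. Of these 5 are forms known from limited tissues: Cox4i2, Cox6b2, Cox7a1 and Cox8b, paralogues of cytochrome oxidase subunits, and Ndufa4l2, a paralogue of Ndufa4. Cox7a1, known from heart and skeletal muscle, was the best counted of them with 17.4 and 14.3 reads against 24.4 and 22.3 (0.53 ± 0.48, adjusted p = 0.495 by limma-voom), beside 399 and 603 against 393 and 469 for Cox7a2, its general paralogue. Cox4i2 had 3.32 and 2.60 against 6.72 and 4.47, Cox8b at most 1.30 in any library, beside 485 and 757 against 482 and 624 for Cox8a. Ndufa4l2 had 0.829 and 5.21 reads with EtOH and 0 in both OHT libraries.

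The other 9 were counted here as general subunits by their symbols: Ndufa7, Ndufs1, Ndufs5, Ndufs6, Ndufs8, Ndufv2, Cox7a2l, Atp5c1 and Atp5g1. Ndufa7 and Atp5g1 each have 2 transcripts in the authors' deposited table, and only the better counted one enters this mean. Ndufs1, the largest core subunit of complex I, had 0.829 and 1.30 normalised reads with EtOH and 0 with OHT, and Atp5c1, the gamma subunit of the ATP synthase, 5.80 and 1.30 against 1.68 and 1.12. Of the 9, 8 have several transcripts in RefSeq, beside 20 of the 66 well-counted subunits. Over all symbols with 1 transcript in the authors' deposited table the 2 kinds differed little. A mean under 50 was found in 49.9% of those with several RefSeq transcripts and 46.5% of those with 1. How the authors' counting treated reads shared by transcripts, or by subunit genes and their near-identical copies, is not stated in the sources used here, so these low values need not be low expression.

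Genes that work beside the respiratory subunits were compared by the same counts, with the authors' call rule. Over all transcripts that rule called 1.85% lower and 3.62% higher. A lower OHT mean was found in 48.3% of all transcripts and in 59.3% of those with a mean of at least 50. Ubiquinone synthesis, which makes the electron carrier between complexes I or II and III, had 13 measured genes, of which 11 were lower with a median log2 fold change of -0.81 in the authors' deposited table and 1 was called lower. That gene, Coq3, a methyltransferase of the pathway, fell from 386 and 368 reads in EtOH libraries A and B to 173 and 224 in OHT libraries A and B; the authors' deposited table gives an adjusted p of 0.0486. Limma-voom, fitted for 12 of the 13, called 7 lower, against 5.49% of all fitted transcripts: Coq2, Coq3, Coq5, Coq6, Coq7, Coq9 and Pdss1. Pdss1, which makes the side chain, had 124 and 150 against 68.0 and 60.3, and Coq2, which attaches it, 537 and 794 against 324 and 354; the groups were separated in both.

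Of 34 measured assembly factors outside the member rule, 31 were lower, with a median of -0.36 in the authors' deposited table, and 1 was called lower. Cox10, which makes the haem A precursor for cytochrome oxidase, fell from 398 and 385 reads to 176 and 219 (log2 fold change -0.98, adjusted p = 0.0304 in the authors' deposited table). Limma-voom called Foxred1 and Lyrm7 as well, factors of complexes I and III in human cells. Of 76 mitochondrial ribosomal protein genes, 71 were lower with a median of -0.49 in the authors' deposited table, and 4 were called lower, Mrpl19, Mrps28, Mrps5 and Mrpl44. Mrpl19 fell from 1052 and 1298 reads to 490 and 555.

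Lists of mitochondrial import (18 of 18 lower, median -0.40), the TCA cycle (19 measured, median -0.40), mitochondrial DNA expression (13 measured, median -0.47) and cytochrome c with its partners (4 measured, median -0.39) had no call in the authors' deposited table. By limma-voom 1 of 16 fitted import genes and 1 of 12 fitted genes of mitochondrial DNA expression were called lower. It called none of the TCA cycle or of cytochrome c with its partners. The 9 measured inner membrane carriers and outer membrane channels had a median of -0.12 and no call there either. Among 11 measured transcription factors and coactivators of respiratory genes, Pprc1, a coactivator related to PGC-1, was called lower in the authors' deposited table (log2 fold change -0.87, adjusted p = 0.0251), with 1239 and 1066 reads against 527 and 733. Tfam, which packages mitochondrial DNA, had 571 and 632 against 336 and 399 and did not pass (limma-voom adjusted p = 0.0523). Of 16 measured glycolysis genes, Aldoc, an aldolase, rose from 292 and 227 reads to 807 and 582 (adjusted p = 0.00500 in the authors' deposited table), and the median of the list was 0.10 in the authors' deposited table.

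Set against the respiratory subunits of the same library, several of these lists were separated between the groups. Ubiquinone synthesis came to 9.58% and 8.23% of the subunit sum in EtOH libraries A and B, against 5.98% and 5.71% in OHT libraries A and B. Mitochondrial ribosomal protein genes came to 78.7% and 77.4% with EtOH and 67.2% and 61.3% with OHT. Glycolysis went the other way, at 42.6% and 38.3% with EtOH and 53.7% and 50.9% with OHT. The other assembly factors overlapped, at 25.6% and 21.1% with EtOH and 22.1% and 19.4% with OHT. Values for the TCA cycle were 49.97% and 41.9% with EtOH and 41.5% and 41.4% with OHT, so EtOH library A alone stood apart.

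**Figure D5:**
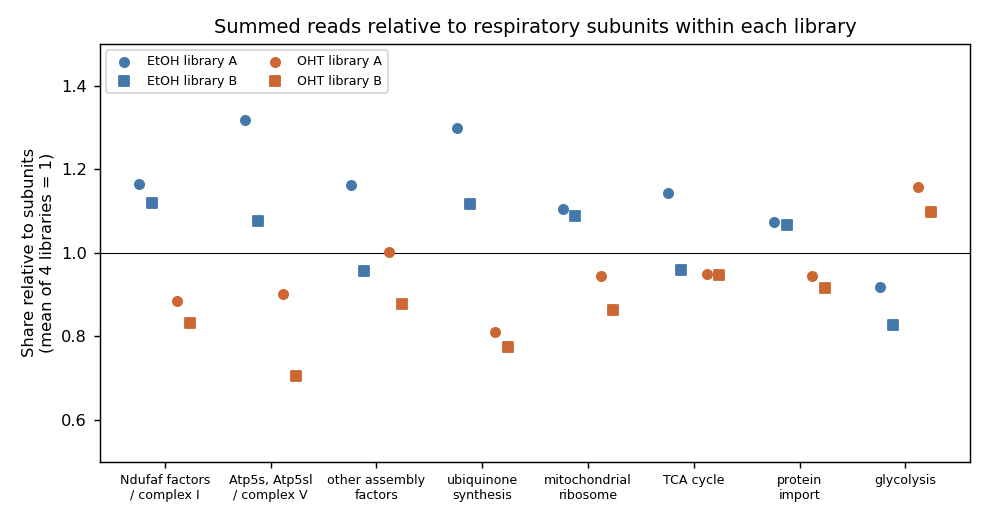
Summed reads of each list relative to the respiratory subunits of the same library (vertical axis, scaled so that the mean of the 4 libraries is 1); the Ndufaf factors are relative to complex I, Atp5s and Atp5sl to complex V, and the other lists to all subunits, with EtOH in blue, OHT in orange, circles for library A and squares for library B. The Ndufaf share goes from 11.6% and 11.2% with EtOH to 8.83% and 8.30% with OHT, and glycolysis is the list with higher OHT values.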

How the data were processed

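RNA-seq was made from 4 libraries of MLL-AF9 leukaemic cells, 2 per group, with version 2 of the TruSeq RNA kit, which does not mark strand, per the labels' protocols. TopHat, DESeq and mm9 are listed in the submitters' processing notes, with no version or role; the counting program is not given in the sources used here. The deposited signal columns are, per the file headers, base means of normalised reads per group. The deposited ratio column divides the OHT by the EtOH mean, the deposited log2 column is its log2, and the deposited p-value columns hold the authors' p and adjusted p. Calls are adjusted p-values under 0.05 in the authors' deposited table, over 18061 transcripts.

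Group means were solved into whole reads per library, with 1 read added to each count before division by a size factor. Totals were 6255320 and 3841243 (EtOH) and 5687967 and 4509718 (OHT), with size factors of 1.206, 0.768, 1.191 and 0.896. Limma-voom (limma 3.58.1, R 4.3.3) was fitted by group to 11338 transcripts, those reaching 10 reads in 2 or more libraries, with Benjamini-Hochberg adjustment over all of them and 2 residual degrees of freedom. Solver and fit were tested on simulated data. The solver gave the right reads for 100% of 4000 simulated means. In simulated reads with a dispersion of 0.05, limma-voom called 2.04% of 1.5-fold, 18.8% of 2-fold and 91.8% of 4-fold changes. Differences as small as those of the subunits would thus rarely be called in that simulation. In leave-one-out fits the lone library of a group is assumed to vary like the other group. Lengths and promoter windows come from annotation of GRCm38 (GENCODE M21, RefSeq GRCm38.p6), matched by accession or symbol; all 89 members had a length and 75 a promoter window; no mm9 coordinates are given. Reads of overlapping or antisense genes cannot be told apart.

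The members and lists were chosen with earlier results of these data known. Named genes are members called by either test, the 2 best counted and the largest rise and fall of each complex, succinate dehydrogenase, isoform families, and called genes of other lists, up to 4 a list. Other members, and other genes of the lists, are named after their values were seen, to account for the set. Some genes that these rules take are not reported here. Alternatives were TMM scaling, no filter, all transcripts, an adjusted p under 0.1, subunits alone, well-counted members alone and each library left out.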

Additional observations from a re-analysis of the deposited data

How the results depend on the processing

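The number of members called lower was 1 in the authors' deposited table, 2 by limma-voom with or without a filter on low counts, and 0 to 9 when 1 library was left out: 9 without EtOH library A and 0 without any of the other 3. The number called higher was 0 in every alternative run. When 1 library was left out the median log2 fold change of all members ranged from -0.44 to 0.032, that of complex I from -0.46 to -0.028, complex II from -0.28 to -0.071, complex III from -0.43 to 0.090, complex IV from -0.42 to 0.17, complex V from -0.43 to 0.095 and the Ndufaf factors from -0.94 to -0.46. The highest value came without EtOH library B in each of these, and the Ndufaf genes were lower in 7 of 7 in every alternative. TMM scaling moved the median of all fitted transcripts by 0.07.

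Of the 32 named genes reported, limma-voom could be fitted after the filter for 27, and 13 of these held their direction in every alternative run; the other 5 had too few reads for more than the fit without a filter, and the second transcript of Cox6b2 stood at -0.97 against 0.77. Those of the 27 that turned, with their range over the fits without 1 library, were Atp5a1 (-0.42 to 0.0024), Atp5b (-0.43 to 0.014), Atp5g3 (-0.36 to 0.079), Atp5j (-0.34 to 0.17), Cox4i1 (-0.35 to 0.16), Cox5b (-0.50 to 0.049), Cox6a1 (-0.43 to 0.16), Cox6b1 (-0.27 to 0.22), Cox7a2 (-0.50 to 0.10), Cox8a (-0.47 to 0.17), Ndufa4 (-0.24 to 0.19), Sdhb (-0.034 to 0.14), Sdhd (-0.38 to 0.017) and Uqcrh (-0.15 to 0.35). Without OHT library A, Atp5j (0.044), Cox4i1 (0.098), Cox6a1 (0.064), Cox6b1 (0.15), Cox8a (0.059) and Ndufa4 (0.12) turned too, as did Uqcrh without OHT library B (-0.013). With TMM scaling Cox6b1 (0.067) and Ndufa4 (0.065) also turned. The cause was not tested.

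No paired analysis was possible because the deposited columns carry no replicate numbers and the solved libraries cannot be linked to those of the labels. With 2 libraries a group and standard errors near 0.24 for subunits, differences of the size seen in most subunits lay within the error.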
